A study of Mus musculus with 8 samples.

Results

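The data described here are the transcript counts of 10 mouse genes of mitophagy and autophagy, the routes by which a maturing red cell removes its mitochondria and other organelles. The genes were chosen by name as Bnip3l, Bnip3, Ulk1, Map1lc3a, Map1lc3b, Gabarapl1, Gabarapl2, Sqstm1, Foxo3 and Atg7. All 10 were among the 24454 gene rows of the count table, and all 10 were among the 12136 genes that passed the filter on low counts. Foxo3 passed that filter only through the erythroid libraries. The study sorted cells from yolk sacs of C57BL/6 embryos at E11.5, the tissue that holds the earliest blood cells and vessels, by an antibody to VE-Cadherin and by green fluorescent protein (GFP). In every group the embryos were miR144/451 +/GFP, so that 1 allele of this erythroid microRNA locus carried GFP, and no group lacked the reporter allele. Double positive cells (VE-Cadherin positive, GFP positive) were pooled by 24 in 2 libraries, replicates 7 and 8. Erythroid cells (VE-Cadherin negative, GFP positive) were pooled by 25 in 3 libraries, replicates 4 to 6, and endothelial cells (VE-Cadherin positive, GFP negative) by 25 in 3 libraries, replicates 1 to 3.

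Mitophagy is the engulfment of mitochondria by a double membrane, the autophagosome, which then fuses with the lysosome. Receptors on the outer mitochondrial membrane, among them the products of Bnip3l (also called NIX) and Bnip3, bind small ubiquitin-like proteins of the ATG8 family that sit on the growing membrane. Bnip3l is known for its part in mitochondrial clearance from mouse reticulocytes, and Bnip3 is a known target of hypoxia-inducible factors. ULK1 is the kinase that starts autophagosome formation, ATG7 activates the ATG8 proteins for attachment to lipid, SQSTM1 (p62) ties ubiquitinated cargo to them, and FOXO3 is a transcription factor of autophagy genes in erythroid cells.

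The promoters of Bnip3 and Gabarapl2 are shown because results below turn on these genes: on Bnip3 in the double positive libraries, and on Gabarapl2 as a share of its family in the erythroid libraries. Both are RefSeq windows of GRCm38.p6, from 250 bases before to 50 bases after the annotated start, written 5′ to 3′ on the strand of the gene. Capitals mark every match to ACGTG, a core form of the hypoxia response element, read on both strands. The other core form, GCGTG, was not searched and is not marked. The Bnip3 window is chr7:138909457-138909756 on the minus strand, and the Gabarapl2 window is chr8:111940453-111940752 on the plus strand.
Bnip3: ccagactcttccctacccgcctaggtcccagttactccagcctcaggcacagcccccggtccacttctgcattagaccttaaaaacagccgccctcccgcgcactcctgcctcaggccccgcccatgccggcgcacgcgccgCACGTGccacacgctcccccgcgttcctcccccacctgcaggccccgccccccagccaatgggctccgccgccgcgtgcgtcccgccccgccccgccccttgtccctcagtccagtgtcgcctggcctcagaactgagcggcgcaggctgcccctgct
Gabarapl2: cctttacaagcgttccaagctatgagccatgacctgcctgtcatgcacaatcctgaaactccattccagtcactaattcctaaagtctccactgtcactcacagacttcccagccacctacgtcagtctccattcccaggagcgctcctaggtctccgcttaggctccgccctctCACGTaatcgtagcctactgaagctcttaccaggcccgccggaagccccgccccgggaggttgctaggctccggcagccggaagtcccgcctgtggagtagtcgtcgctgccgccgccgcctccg
In the Bnip3 window the capitals hold overlapping matches on both strands, which together spell the palindrome CACGTG and begin at base 143, 108 bases before the start. In the Gabarapl2 window the match is on the opposite strand and begins at base 176, 75 bases before the start. ACGTG on either strand stood in 6447 of 32851 RefSeq promoters of the same length (19.6%), and CACGTG, the letters of a TFEB-type E-box, in 7.15%. Of the 8 members with a promoter entry, Atg7 also held CACGTG, at base 119, and Map1lc3b held 1 match to TGACNNNGC, the core of the antioxidant response element, which stood in 12.4% of promoters. Ulk1, Gabarapl1, Sqstm1 and Foxo3 held no match to these letters, to AGATAA, which stood in 11.2% of promoters and is read by erythroid factors of the GATA family, or to GTAAACA, a forkhead motif in 3.65%. Neither AGATAA nor GTAAACA matched in any of the 8 windows. Bnip3l and Map1lc3a had no promoter entry.

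Total counts ran from 3723128 to 7618444 per library. Values below are normalised read counts (CPM) on library sizes corrected by TMM, the trimmed mean of M values. This factor assumes that most genes are level between libraries. With it, the median log2 difference of all tested genes was 0.06 for double positive over endothelial and 0.71 for double positive over erythroid libraries. For erythroid over endothelial libraries it was −0.36. Globin genes took 54.5% to 56.5% of the counts in erythroid libraries, 8.85% and 14% in double positive libraries and at most 0.00404% in endothelial libraries, so the choice of scaling carries weight. With library size alone, the median log2 difference of all tested genes moved by −0.63 for double positive over endothelial, by 0.90 for double positive over erythroid and by −1.54 for erythroid over endothelial libraries. The labelled cell types were checked against fixed marker lists. The 11 erythroid markers summed to 79030 and 137900 CPM in double positive, 953900 to 1016000 CPM in erythroid and 15.3 to 24.7 CPM in endothelial libraries, where Klf1, Gata1, Rhag and Hemgn were among those at 0. The 11 endothelial markers summed to 528 and 726 CPM in double positive, 1.96 to 9.09 CPM in erythroid libraries, where 10 of 11 were at 0, and 4213 to 6193 CPM in endothelial libraries. The double positive libraries also held 89680 and 89850 CPM from 10 markers of visceral endoderm, the outer epithelium of the yolk sac, against 9.78 to 22.2 CPM in erythroid and 29.9 to 46.0 CPM in endothelial libraries. The 10 macrophage markers summed to 106 and 171 CPM in double positive libraries, were all at 0 in erythroid libraries and summed to 1364 to 3271 CPM in endothelial libraries, with the highest sum in replicate 2. The 6 megakaryocyte markers summed to 4.97 and 58.7 CPM in double positive libraries, 28.7 to 43.4 CPM in erythroid libraries, where 4 of 6 were at 0, and 504 to 936 CPM in endothelial libraries, again highest in replicate 2. In such pools, fewer cells of a type and less RNA per cell cannot be told apart. The labels do not say whether pools came from separate embryos, so every p-value here covers the variation from pool to pool, which can be technical, and nothing beyond it.

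In the double positive libraries, Bnip3 was far above its level in both other populations, and Map1lc3b was modestly above both. Against endothelial libraries, Bnip3, Map1lc3b, Gabarapl2 and Sqstm1 rose, 4 of 10 members, beside 14.6% of all genes tested. None of the 10 fell, beside 6.92% of all genes. Against erythroid libraries, Bnip3 and Map1lc3b rose, 2 of 10 members beside 31.5% of all genes, and Bnip3l fell, 1 of 10 beside 10.6%. In erythroid against endothelial libraries, Bnip3l and Gabarapl2 rose, 2 of 10 members beside 14.4% of all genes, and none fell, beside 26.6%. Foxo3, which entered the test only through the erythroid libraries, is left out of that count, although its adjusted p was also under the threshold. Genes passed at an adjusted p under 0.05 with edgeR's quasi-likelihood test with Benjamini-Hochberg adjustment over all 12136 genes, in a fit to all 8 libraries. At an unadjusted p under 0.05 the number of members that were lower stayed at 0 in both comparisons with endothelial libraries, as it did with DESeq2 and limma-voom. With library size alone, 7 members fell and none but Foxo3 was called higher in erythroid over endothelial, 1 rose in double positive over endothelial, and 5 rose in double positive over erythroid libraries. Of all 12136 genes, that setting called 7270 lower and 420 higher in erythroid over endothelial libraries. It called 1118 higher in double positive over endothelial and 5760 higher in double positive over erythroid libraries. The median log2 difference of the 10 members was 0.65 for double positive over endothelial libraries, against 0.06 over all genes, 0.47 for double positive over erythroid libraries, against 0.71, and 0.34 for erythroid over endothelial libraries, against −0.36. Libraries of the compared populations did not overlap for 6 members higher and 0 lower in double positive against endothelial libraries, beside 32.9% and 24.6% of all genes. For double positive against erythroid libraries this held for 6 higher and 1 lower, beside 47.5% and 20%, and for erythroid against endothelial libraries for 5 higher and 0 lower, beside 18.7% and 32.1%. In either direction 4, 3 and 3 of 10 members passed in these comparisons, beside 21.6%, 42% and 41% of all genes. Foxo3 is among the last 3 and among the 5 higher without overlap in erythroid against endothelial libraries. It is also among the 6 higher without overlap in double positive against endothelial libraries, and its fitted value enters the medians. The 3 comparisons share libraries, so their values stand side by side and not as separate evidence.

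**Figure D1:**
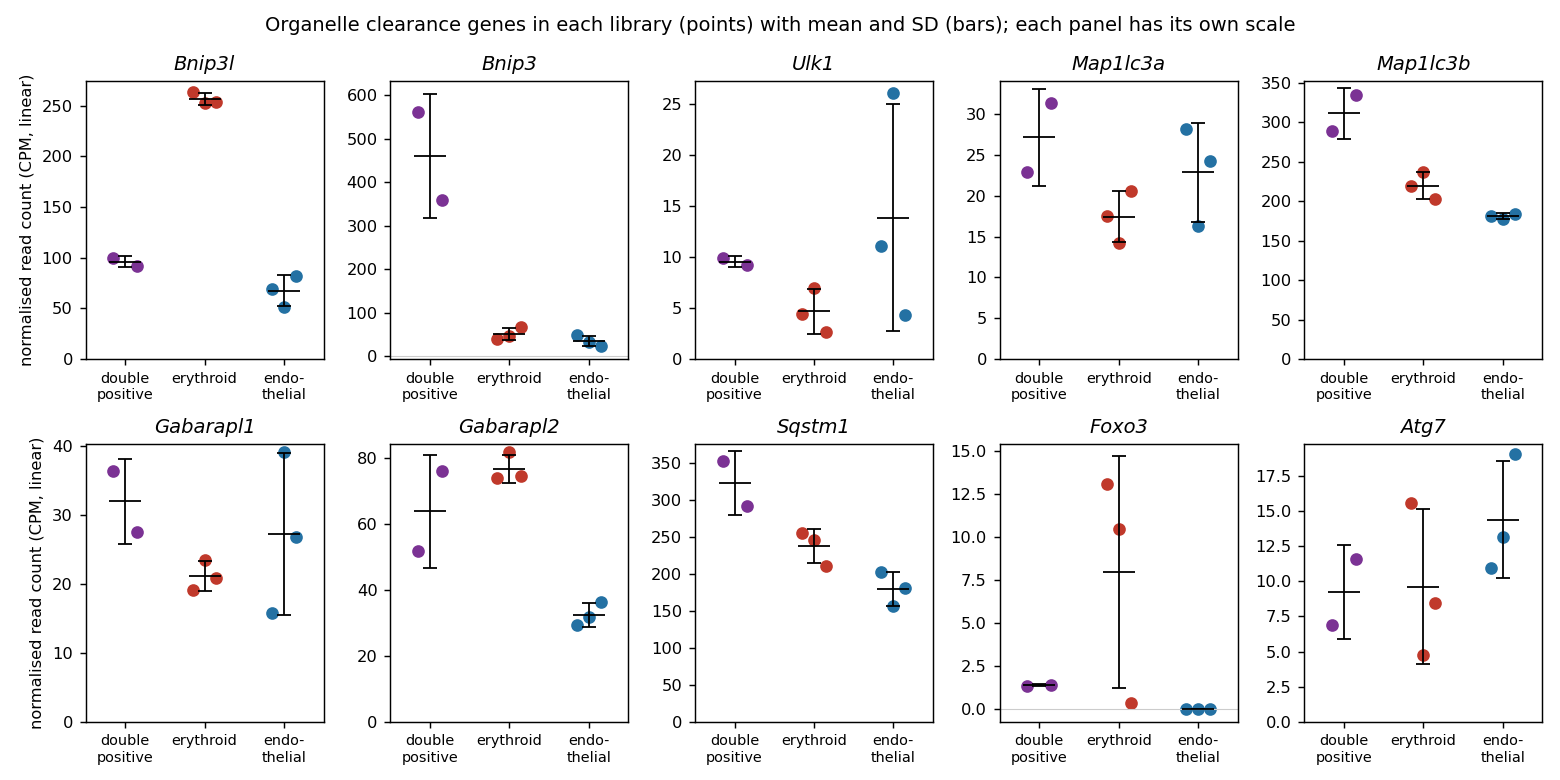
Normalised read counts (CPM, linear axis, 1 scale per panel) of the 10 genes in each library, as points, with the mean and SD of each population as bars. Bnip3 stands at 562 and 359 CPM in the double positive libraries, and Bnip3l at 253 to 264 CPM in the erythroid libraries, each above all libraries of the other populations.

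Of the 2 mitophagy receptors in the list, Bnip3l was highest in erythroid and Bnip3 in double positive libraries. Bnip3l (chromosome 14, 66985239 to 67008877, minus strand, GRCm38 in the GENCODE annotation) stood at 100.2 and 92.1 CPM in double positive libraries, at 264, 253 and 253 CPM in erythroid libraries and at 69.3, 51.3 and 82.2 CPM in endothelial libraries. The erythroid libraries were the highest, and no library of the 3 populations overlapped with those of another. In erythroid libraries it rose 3.79-fold over endothelial libraries (log2 difference 1.92, SE 0.19, adjusted p = 7.9e-05 with edgeR), and this call ended with library size alone, at a log2 difference of 0.38 and an adjusted p of 0.124. In double positive libraries it fell to 96.1 ± 5.69 CPM (SD, n = 2), against 257 ± 6.19 CPM in erythroid libraries (SD, n = 3), a log2 difference of −1.42 (SE 0.22, adjusted p = 0.00107 with edgeR). That difference was −0.50 with library size alone, with an adjusted p of 0.0922. Both calls held when each library was left out in turn. Double positive against endothelial libraries did not pass, at a log2 difference of 0.51 (SE 0.21, adjusted p = 0.121 with edgeR), and the value turned to −0.12 with library size alone.

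Bnip3 (chromosome 7, 138890836 to 138909519, minus strand), whose promoter is printed above, had 562 and 359 CPM in double positive libraries, 38.9, 45.1 and 65.9 CPM in erythroid libraries and 47.6, 32.1 and 23.4 CPM in endothelial libraries. The double positive libraries stood far above the rest, while erythroid and endothelial libraries overlapped. Bnip3 rose 13.4-fold in double positive over endothelial libraries (log2 difference 3.74, SE 0.35, adjusted p = 0.000189 with edgeR) and 9.24-fold over erythroid libraries (log2 difference 3.21, SE 0.35, adjusted p = 0.000171). These calls held in all 16 alternatives, with log2 differences of 3.12 to 4.04 over endothelial and 2.86 to 4.13 over erythroid libraries. Being above both other populations was a trait of 9.33% of all genes tested. The rise goes with the visceral endoderm markers given above, which were also high in the double positive libraries alone, and their part in it was not tested. Erythroid over endothelial libraries did not pass, at a log2 difference of 0.53 (SE 0.31, adjusted p = 0.208 with edgeR), and with library size alone the value turned to −1.02 with an adjusted p of 0.0288.

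The ratio of Bnip3l to Bnip3 counts is taken within a library and does not depend on scaling. It was 0.178 and 0.256 in double positive libraries, 6.78, 5.61 and 3.85 in erythroid libraries and 1.46, 1.60 and 3.51 in endothelial libraries. By counts Bnip3 outnumbered Bnip3l in the double positive pools and in no other pool, and the ranges of the 3 populations did not overlap. Per kilobase of exon, Bnip3 was also above Bnip3l in endothelial replicate 1, at 21.0 against 17.95 CPM per kilobase, and in endothelial replicate 2, at 14.2 against 13.3. The mean log2 ratio was −2.23 ± 0.37 in double positive (SD, n = 2), 2.40 ± 0.42 in erythroid and 1.01 ± 0.70 in endothelial libraries (SD, n = 3 each). The difference was −3.24 for double positive against endothelial, −4.62 for double positive against erythroid and 1.39 for erythroid against endothelial libraries. Each had p = 0.1 by an exact two-sided permutation test, also after adjustment over the 3 comparisons, and 0.1 is the smallest p that 2 or 3 against 3 libraries allow.

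Set beside 4 other receptors of mitochondria for autophagy, Bnip3l took 7.81% ± 0.93 of the summed counts per kilobase of exon in double positive libraries, 39.0% ± 1.41 in erythroid libraries and 14.8% ± 3.79 in endothelial libraries (SD, n = 2, 3 and 3). Bnip3 took 62.4% ± 8.58 in double positive, 13.0% ± 3.73 in erythroid and 12.7% ± 4.29 in endothelial libraries. The other 4 were Fundc1, an outer membrane receptor linked to hypoxia, Bcl2l13 and Fkbp8, further outer membrane receptors, and Phb2, an inner membrane prohibitin. Fundc1 took 8.91% ± 1.99 in double positive, 5.13% ± 2.11 in erythroid and 23.2% ± 2.91 in endothelial libraries. Bcl2l13 took 0.492% ± 0.0664 in double positive, 4.82% ± 0.875 in erythroid and 2.30% ± 1.45 in endothelial libraries. These 6 receptors were put together after their values had been seen, and their shares are a description.

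**Figure D2:**
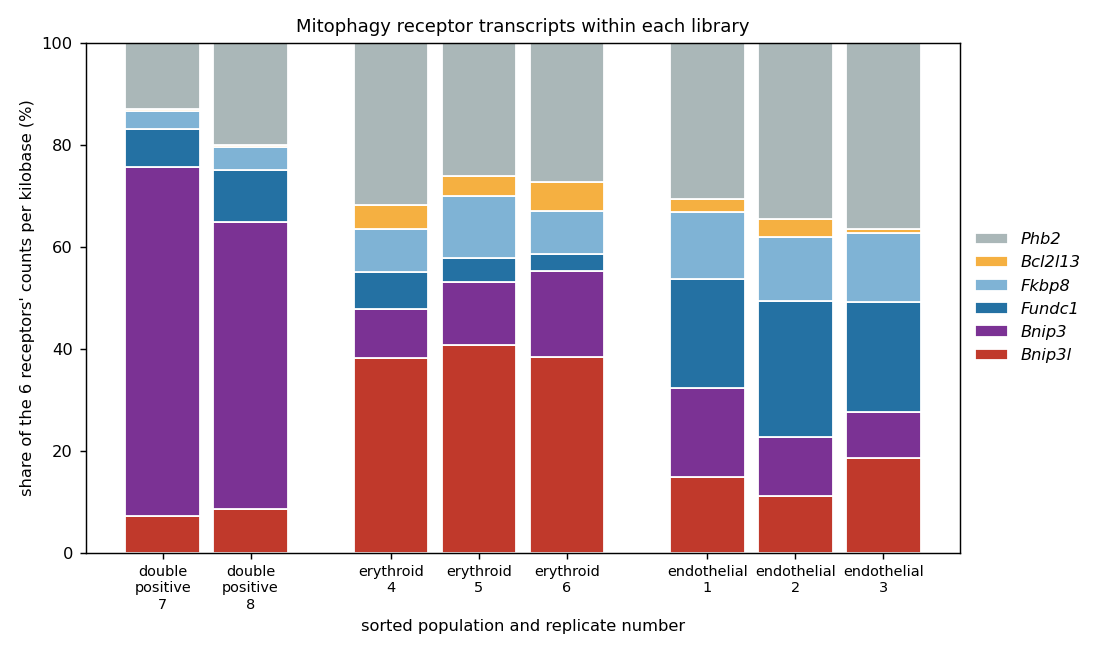
Share of each of 6 mitophagy receptors in their summed counts per kilobase of exon (%, 1 bar per library, by population and replicate number). Bnip3 fills 68.4% and 56.3% of the double positive bars, and Bnip3l 38.1% to 40.6% of the erythroid bars.

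In the scaled counts, Fundc1 fell to 31.2, 18.1 and 13.0 CPM in erythroid libraries, against 60.8, 75.4 and 58.2 CPM in endothelial libraries (log2 difference −1.63, SE 0.33, adjusted p = 0.00391 with edgeR). Fundc1 stood at 64.0 and 68.5 CPM in double positive libraries and rose over erythroid libraries (log2 difference 1.66, SE 0.35, adjusted p = 0.00584 with edgeR). Usp30, which removes ubiquitin from mitochondria and opposes mitophagy, had 10.3 and 3.67 CPM in double positive libraries, 0 in all erythroid libraries and 6.35, 8.15 and 4.85 CPM in endothelial libraries. Against a floor of 3 counts over the erythroid group it was at least 24.5-fold higher in double positive libraries (adjusted p = 0.00419 with edgeR), and in erythroid libraries it was at least 22.6-fold lower than in endothelial libraries (adjusted p = 0.00347). Genes at 0 in all erythroid libraries, here Usp30 and further on Atg16l2, Ddit4 and Epas1, passed the filter only through the other populations, which favours a call in their direction. Ddit4 passed through the endothelial libraries alone. Both Usp30 and both Fundc1 calls held when each library was left out in turn. Bcl2l13 rose in erythroid over endothelial libraries (log2 difference 1.58, adjusted p = 0.0389 with edgeR), a call that 6 of 8 left-out libraries ended, with adjusted p values up to 0.1. With library size alone the log2 difference was 0.03 (adjusted p = 0.996 with edgeR). The call also ended with RLE factors (adjusted p = 0.0584), with globin genes and Rn45s removed (0.0531) and with only the populations compared (0.0625). Bcl2l13 fell in double positive against erythroid libraries (log2 difference −2.36, adjusted p = 0.017), and without replicate 7 or 8 the adjusted p was 0.0605 and 0.123, and with library size alone 0.0917. Pink1, the kinase that marks damaged mitochondria, had 10.3 and 9.78 CPM in double positive libraries, 6.29, 12.7 and 10.4 CPM in erythroid libraries and 6.08, 8.96 and 5.33 CPM in endothelial libraries, and passed in no comparison. Parkin, its partner ligase, listed under the older symbol Park2, was under the filter, with at most 2.38 CPM in any library.

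Among the proteins that coat the autophagosome, Gabarapl2 rose in erythroid over endothelial libraries, except with library size alone, and took a larger share of its family there. Gabarapl2 (chromosome 8, 111940703 to 111953612, plus strand) had 51.6 and 75.8 CPM in double positive libraries, 73.9, 81.5 and 74.3 CPM in erythroid libraries and 29.2, 31.6 and 36.2 CPM in endothelial libraries. Double positive and erythroid libraries overlapped, and all 5 stood above the endothelial ones. In erythroid libraries it rose 2.37-fold over endothelial libraries (log2 difference 1.24, SE 0.22, adjusted p = 0.00203 with edgeR), without any 1 library as well, but the value turned to −0.30 with library size alone (adjusted p = 0.251). Double positive libraries had a 1.97-fold rise over endothelial libraries (log2 difference 0.98, SE 0.24, adjusted p = 0.0215 with edgeR). That call ended without replicate 1 (0.90, adjusted p = 0.0608), without replicate 8 (0.66, adjusted p = 0.288) and with library size alone (0.33, adjusted p = 0.356). Double positive against erythroid libraries had a log2 difference of −0.27 (adjusted p = 0.421 with edgeR), which turned to 0.63 with library size alone.

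Map1lc3b (chromosome 8, 121590361 to 121598760, plus strand), which encodes the LC3B protein used to trace autophagosomes, had 289 and 335 CPM in double positive libraries, 219, 237 and 203 CPM in erythroid libraries and 181, 177 and 184 CPM in endothelial libraries. The 3 populations did not overlap, in that order from high to low. In double positive libraries it rose 1.72-fold over endothelial libraries (log2 difference 0.78, SE 0.14, adjusted p = 0.00585 with edgeR) and 1.42-fold over erythroid libraries (log2 difference 0.51, SE 0.14, adjusted p = 0.0211). Without replicate 8 the values were 0.66 (adjusted p = 0.0667) over endothelial and 0.43 (adjusted p = 0.137) over erythroid libraries, and without replicate 6 the difference from erythroid libraries was 0.46 (adjusted p = 0.0556). With library size alone the difference from endothelial libraries was 0.14 (adjusted p = 0.479). Erythroid over endothelial libraries had a log2 difference of 0.28 (SE 0.13, adjusted p = 0.119 with edgeR), which turned to −1.27 with library size alone (adjusted p = 4.86e-05).

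Map1lc3a (chromosome 2, 155276297 to 155278073, plus strand), the LC3A gene, stood at 22.9 and 31.4 CPM in double positive libraries, 17.5, 14.3 and 20.5 CPM in erythroid libraries and 28.2, 16.3 and 24.2 CPM in endothelial libraries. Gabarapl1 (chromosome 6, 129533160 to 129542346, plus strand), another ATG8 member, had 36.3 and 27.5 CPM in double positive libraries, 19.1, 23.5 and 20.9 CPM in erythroid libraries and 15.7, 39.1 and 26.8 CPM in endothelial libraries. Per kilobase of its short transcript, Map1lc3a was at the 86.4th percentile of all genes in double positive, the 83.4th in erythroid and the 86.9th in endothelial libraries. Neither gene passed in any comparison, and for both the erythroid libraries stood below the double positive ones but overlapped with the endothelial ones. With library size alone both were called lower in erythroid than in endothelial libraries (−1.94, adjusted p = 0.00171, for Map1lc3a, and −1.90, adjusted p = 0.0029, for Gabarapl1) and higher in double positive than in erythroid libraries (1.54, adjusted p = 0.0101, and 1.51, adjusted p = 0.0155). Gabarap, the remaining family gene and no member of the list, had 280.4 and 338 CPM in double positive libraries, 180, 222 and 209 CPM in erythroid libraries and 149, 215 and 166 CPM in endothelial libraries. Gabarap rose in double positive over endothelial libraries (log2 difference 0.81, SE 0.19, adjusted p = 0.0195 with edgeR) and over erythroid libraries (log2 difference 0.60, SE 0.19, adjusted p = 0.0345). These calls were lost when any of replicates 1, 3 and 8, or any of replicates 4, 6, 7 and 8, was left out, at adjusted p up to 0.168 and 0.189, and the difference from endothelial libraries was 0.17 with library size alone.

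Within the ATG8 family, shares of the summed counts per kilobase were free of the scaling between libraries. Gabarapl2 took 9.86% ± 1.39 in double positive libraries (SD, n = 2), 16.7% ± 0.706 in erythroid libraries and 8.39% ± 1.11 in endothelial libraries (SD, n = 3 each). All erythroid libraries, at 16% to 17.4%, stood above all others, which reached 10.8%. The difference of 8.29 percentage points between erythroid and endothelial libraries and that of −6.82 between double positive and erythroid libraries each had p = 0.1 by an exact two-sided permutation test, the smallest possible, and 0.5 after adjustment over 15 such tests. Gabarap took 60.9% ± 0.138 in double positive, 55.7% ± 2.06 in erythroid and 57.2% ± 4.52 in endothelial libraries, the largest share in each population on this scale. Map1lc3b took 15.1% ± 0.397, 14.8% ± 1.25 and 14.6% ± 1.81 in double positive, erythroid and endothelial libraries. The share of Map1lc3b rests on an annotated exon length of 7517 bases: by counts alone it was 41.9% in double positive, 40.8% in erythroid and 41.3% in endothelial libraries, above Gabarap at 41.6%, 37.8% and 39.9%.

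**Figure D3:**
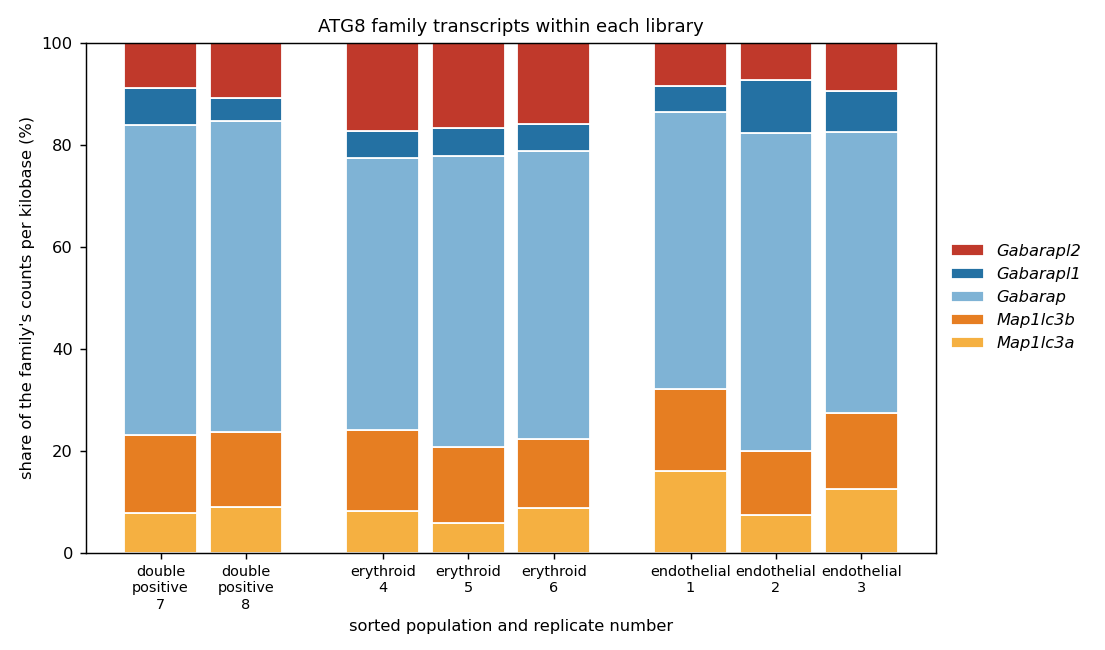
Share of each ATG8 family gene in the family's summed counts per kilobase of exon (%, 1 bar per library, by population and replicate number). Gabarapl2, at the top of each bar, takes 16% to 17.4% in the erythroid libraries and at most 10.8% in any other.

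Sqstm1 (chromosome 11, 50199366 to 50210827, minus strand), the p62 cargo receptor, was among the more abundant genes in every population, at the 95.9th percentile of CPM per kilobase over 11777 genes in double positive, the 95.8th in erythroid and the 95.3rd in endothelial libraries. It had 353 and 292 CPM in double positive libraries, 255, 246 and 211 CPM in erythroid libraries and 203, 157 and 180 CPM in endothelial libraries. The populations did not overlap, in the same order as for Map1lc3b. In double positive libraries it rose 1.79-fold over endothelial libraries (log2 difference 0.84, SE 0.17, adjusted p = 0.00933 with edgeR), with 0.71 and an adjusted p of 0.0842 without replicate 7, and 0.21 and an adjusted p of 0.452 with library size alone. Double positive over erythroid libraries (log2 difference 0.44, adjusted p = 0.0669 with edgeR) and erythroid over endothelial libraries (0.40, adjusted p = 0.0671) did not pass. With library size alone, double positive over erythroid was called, at 1.36 and an adjusted p of 0.000468, and the value for erythroid over endothelial turned to −1.15, with an adjusted p of 0.000521. DESeq2 called double positive over erythroid, at 0.49 and an adjusted p of 0.0338, and a minimum count of 50 let erythroid over endothelial pass, at 0.43 and an adjusted p of 0.0483.

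Foxo3 (chromosome 10, 42181841 to 42276755, minus strand), the transcription factor, had few reads and an uneven spread. It had 7 and 7 counts in double positive libraries (1.34 and 1.43 CPM), 56, 33 and 1 counts in erythroid libraries (13.1, 10.5 and 0.326 CPM) and 0 in all 3 endothelial libraries. Erythroid replicates 4 and 5 stood highest, and replicate 6 lay below both double positive libraries. Over a floor of 3 counts in the endothelial group, the mean of Foxo3 was at least 52.7-fold higher in erythroid libraries and at least 9.17-fold higher in double positive libraries. Because Foxo3 passed the filter on low counts only through the erythroid libraries, where it was high, these folds are given as a description, with no test. Without erythroid replicate 4 or 5, with a minimum count of 50, or with only the erythroid and endothelial libraries, Foxo3 failed the filter on low counts and was not tested. Foxo1, a related factor, had 32.7 and 21.6 CPM in double positive libraries, 0, 4.44 and 1.63 CPM in erythroid libraries and 37.4, 23.1 and 54.6 CPM in endothelial libraries. It fell in erythroid against endothelial libraries (log2 difference −4.29, SE 0.91, adjusted p = 0.00515 with edgeR) and rose in double positive over erythroid libraries (3.79, SE 0.94, adjusted p = 0.012), the rise with an adjusted p of 0.0613 without replicate 7.

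Ulk1 and Atg7, the starting kinase and the activating enzyme, were among the least abundant members and passed in no comparison. Ulk1 (chromosome 5, 110784488 to 110810097, minus strand) had 9.94 and 9.17 CPM in double positive libraries, 4.43, 6.98 and 2.61 CPM in erythroid libraries and 11.1, 26.1 and 4.36 CPM in endothelial libraries. The endothelial libraries spread widely, with the highest value in replicate 2, the library with the highest macrophage and megakaryocyte markers, whose part in it was not tested. Erythroid over endothelial libraries had a log2 difference of −1.56 (SE 0.74, adjusted p = 0.124 with edgeR), which was called without replicate 3, at −1.99 and an adjusted p of 0.0493, and with library size alone, at −3.10 and an adjusted p of 0.00696. Double positive libraries differed from endothelial ones by −0.53 (adjusted p = 0.715 with edgeR) and from erythroid ones by 1.03 (adjusted p = 0.336). Atg7 (chromosome 6, 114643097 to 114860614, plus strand) had 6.88 and 11.6 CPM in double positive libraries, 15.6, 4.76 and 8.48 CPM in erythroid libraries and 11.0, 13.2 and 19.1 CPM in endothelial libraries, with all populations overlapping. Its log2 difference was −0.57 (SE 0.58, adjusted p = 0.472 with edgeR) for erythroid over endothelial libraries, and with library size alone −2.12 (adjusted p = 0.0108).

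**Figure D4:**
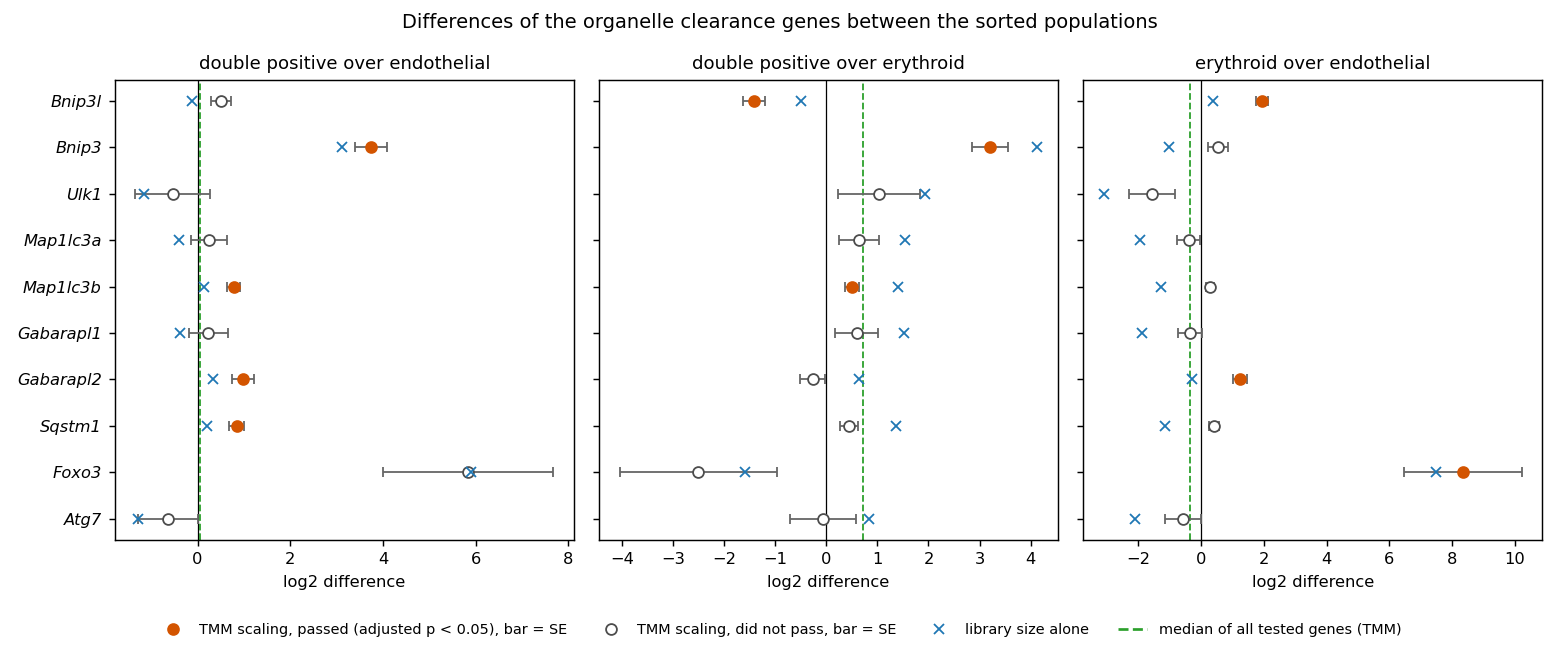
Log2 difference of each member in the 3 comparisons, with its SE (bars), filled where the adjusted p was under 0.05 with edgeR, and the value with library size alone (crosses); the dashed line is the median of all tested genes. Bnip3 in the double positive libraries is filled far to the right on both scalings, while Bnip3, Map1lc3b, Gabarapl2 and Sqstm1, 4 of 10 members, change sign between scalings in erythroid over endothelial; the fitted value of Foxo3, at 0 in endothelial libraries, depends on the prior count.

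Per kilobase of exon, Bnip3 was the most abundant member in double positive libraries, at 203 ± 63.3 CPM per kilobase (SD, n = 2), the 98.2nd percentile of all genes, and stood at the 87.9th in erythroid and the 83.4th in endothelial libraries. Bnip3l was at the 87.3rd percentile in double positive, the 95.4th in erythroid and the 85.5th in endothelial libraries. Sqstm1 led the erythroid libraries, at 70.8 ± 6.97 CPM per kilobase (SD, n = 3), followed by Bnip3l at 66.5 ± 1.60, and the 2 genes overlapped there. Ulk1, Atg7 and Foxo3 were the lowest members in every population, under the 50th percentile.

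The genes with the most similar profile to Bnip3l over the 8 libraries, by the root mean square difference of log2(CPM + 1) values centred on each gene's mean, were Usp15 (0.125), Wipi2 (0.146), Gins1 (0.185), Eif5 (0.191) and Adipor1 (0.204), against a median of 1.41 over 12135 genes. Wipi2, which recruits the conjugation machinery to the autophagosome membrane, had 24.5 and 26.7 CPM in double positive libraries, 74.3, 66.6 and 85.8 CPM in erythroid libraries and 19.8, 12.1 and 20.2 CPM in endothelial libraries. For Sqstm1 the closest were Gm13154 (0.12), Rabac1 (0.125), Sec62 (0.134), Polr2e (0.135) and N4bp2l2 (0.149), against a median of 1.01. Map1lc3a was closest to Pcbp2 (0.158), Serf2 (0.183), Maea (0.201), Ddx52 (0.203) and Fam208a (0.203), against 0.981, and Ulk1 to Erlin2 (0.228), Zfp316 (0.288), Pex11a (0.315), Wdpcp (0.319) and D930048N14Rik (0.369), against 1.21. Among the genes closest to Ulk1, Zfp316, Pex11a, Wdpcp and D930048N14Rik had population means of at most 2.151 CPM. At such levels the 1 added to each CPM weighs on the likeness. The likeness is a description, and all these genes share the libraries and their scaling.

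The wider autophagy pathway was read from 9 lists with 71 genes, 68 of them tested. In double positive over endothelial libraries 8 genes rose (11.8%, beside 14.6% of all genes) and 1 fell (1.47%, beside 6.92%). In double positive over erythroid libraries 11 rose (16.2%, beside 31.5%) and 6 fell (8.82%, beside 10.6%). In erythroid over endothelial libraries 12 rose (17.6%, beside 14.4%) and 9 fell (13.2%, beside 26.6%), and the median log2 difference was 0.24, against −0.36 over all genes. The split with library size alone became 3 higher and 5 lower for double positive over endothelial, 27 and 2 for double positive over erythroid, and 2 and 40 for erythroid over endothelial libraries. Without the members, 58 genes were tested with TMM scaling. Of these, 4 rose (6.9%, beside 14.6% of all genes) and 1 fell (1.72%, beside 6.92%) in double positive over endothelial libraries. In double positive over erythroid libraries 9 rose (15.5%, beside 31.5%) and 5 fell (8.62%, beside 10.6%). For erythroid over endothelial libraries 9 rose (15.5%, beside 14.4%) and 9 fell (15.5%, beside 26.6%). With the members included, the genes that rose in erythroid over endothelial libraries include Foxo3. Foxo3 passed the filter only through the erythroid libraries, where it was high. Prkaa2, which passed only through the double positive libraries, lies outside these 9 lists and is in none of these counts.

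**Figure D5:**
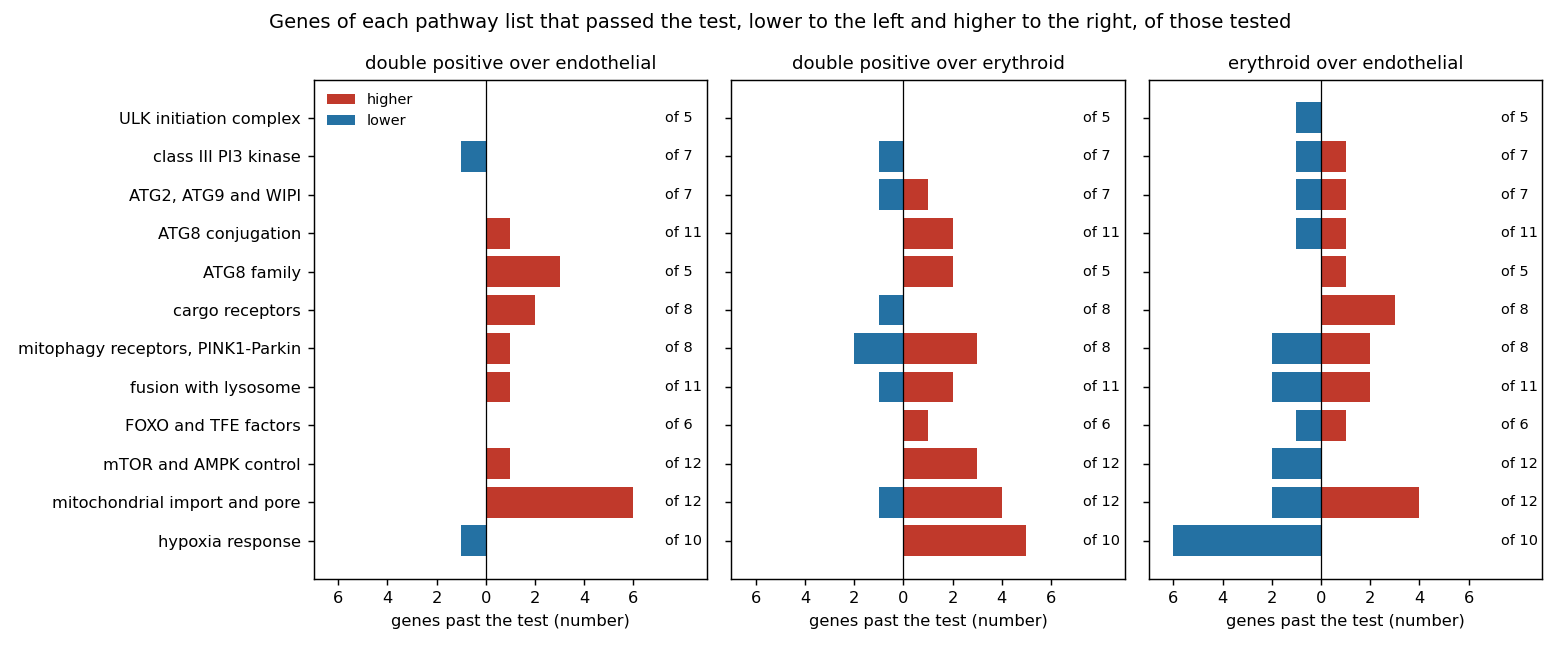
Number of genes of each pathway list that passed the test with edgeR in each comparison, higher to the right and lower to the left, with the number tested beside each bar. The bars include Foxo3, Prkaa2 and Ddit4, which passed the filter only through the population where each was high. In the text their values are a description with no test. In erythroid over endothelial libraries 6 of 10 hypoxia response genes are lower, beside 26.6% of all genes. In double positive over endothelial libraries 6 of 12 genes of the mitochondrial list, Hspd1 among them, are higher, beside 14.6% of all genes.

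In the class III PI3 kinase, membrane supply and conjugation lists, genes moved in both directions in erythroid over endothelial libraries. Within the class III PI3 kinase list, Becn1, the Beclin subunit, rose to 130, 124 and 128 CPM in erythroid libraries, against 60.6, 52.1 and 50.9 CPM in endothelial libraries (log2 difference 1.22, SE 0.17, adjusted p = 0.00053 with edgeR), and turned to −0.32 with library size alone. Becn1 stood at 31.3 and 29.1 CPM in double positive libraries, where it fell against erythroid libraries (log2 difference −2.07, SE 0.21, adjusted p = 0.000104 with edgeR) and against endothelial libraries (−0.85, SE 0.20, adjusted p = 0.0167), the second with an adjusted p of 0.105 without replicate 7 and 0.141 without replicate 8. Uvrag, its partner in endosomal complexes, fell in erythroid against endothelial libraries (log2 difference −1.54, adjusted p = 0.0384 with edgeR), a call that 6 of 8 left-out libraries ended, at adjusted p up to 0.113. In the membrane supply list, Wipi2 rose in erythroid over endothelial libraries (log2 difference 2.12, SE 0.28, adjusted p = 0.0004 with edgeR), not called with library size alone (0.57, adjusted p = 0.124). Its relative Wdr45b fell to 12.1, 6.03 and 16.3 CPM in erythroid libraries, against 83.0, 59.6 and 66.6 CPM in endothelial libraries (log2 difference −2.60, SE 0.37, adjusted p = 0.00056 with edgeR). In double positive against erythroid libraries, Wipi2 fell (log2 difference −1.56, SE 0.32, adjusted p = 0.00473 with edgeR; −0.65, adjusted p = 0.14, with library size alone) and Wdr45b rose (1.78, SE 0.39, adjusted p = 0.00631).

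In the conjugation list, Atg16l2 had 6.12 and 2.45 CPM in double positive libraries, 0 in all erythroid libraries and 7.27, 2.77 and 3.88 CPM in endothelial libraries. It was at least 15-fold higher in double positive than in erythroid libraries (adjusted p = 0.00941 with edgeR, 0.0735 without replicate 7) and at least 16.2-fold lower in erythroid than in endothelial libraries (adjusted p = 0.00708). Atg4d, a protease that processes ATG8 proteins, had 71.6, 102 and 41.1 CPM in erythroid libraries, against 9.52, 0 and 8.72 CPM in endothelial libraries, and rose there (log2 difference 3.55, SE 0.98, adjusted p = 0.0177 with edgeR, 0.0544 without replicate 5 and 0.115 with library size alone). Atg12, the ubiquitin-like partner of ATG5, had 132 and 104 CPM in double positive libraries, 79.0, 56.5 and 59.0 CPM in erythroid libraries and 48.4, 45.0 and 35.1 CPM in endothelial libraries. It rose in double positive over endothelial libraries (log2 difference 1.46, SE 0.25, adjusted p = 0.0041 with edgeR, 0.0511 without replicate 7) and over erythroid libraries (0.86, SE 0.25, adjusted p = 0.0226). The second call ended without any 1 of replicates 5 to 8, at adjusted p up to 0.192. Of the 5 genes of the ULK initiation complex, only Atg101 was called, lower in erythroid than in endothelial libraries (log2 difference −1.20, adjusted p = 0.0404 with edgeR), and 7 of 8 left-out libraries ended the call, at adjusted p up to 0.109.

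Among cargo receptors, Ncoa4, which delivers ferritin to the autophagosome, had the smallest adjusted p of its list in erythroid over endothelial libraries, while Optn had the larger log2 difference. Ncoa4 had 23.9 and 32 CPM in double positive libraries, 237, 262 and 233 CPM in erythroid libraries and 29.2, 39.1 and 17.9 CPM in endothelial libraries. The erythroid libraries stood apart, and the others overlapped. Ncoa4 rose 8.47-fold in erythroid over endothelial libraries (log2 difference 3.08, SE 0.29, adjusted p = 5.89e-05 with edgeR) and fell in double positive against erythroid libraries (−3.12, SE 0.34, adjusted p = 0.000177), and both calls held in every alternative, at 1.54 and −2.22 with library size alone. Optn, a receptor of ubiquitinated mitochondria, had 33.5 and 23.6 CPM in double positive libraries, 42.0, 50.8 and 27.7 CPM in erythroid libraries and 5.42, 2.28 and 0 CPM in endothelial libraries. It rose over endothelial libraries in the double positive (log2 difference 3.44, SE 0.96, adjusted p = 0.0353 with edgeR) and in the erythroid libraries (3.93, SE 0.94, adjusted p = 0.00892). With library size alone the adjusted p was 0.0819 and 0.0588, and the double positive call ended without any 1 of replicates 2, 7 and 8, at adjusted p up to 0.16. Tax1bp1, a further ubiquitin-binding receptor, rose in erythroid over endothelial libraries (log2 difference 0.95, SE 0.22, adjusted p = 0.00865 with edgeR) and turned to −0.60 with library size alone.

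At the step of fusion with the lysosome, Vamp8, a SNARE of the lysosomal membrane, had 460 and 422 CPM in double positive libraries, 200, 249 and 240 CPM in erythroid libraries and 123, 192 and 124 CPM in endothelial libraries. It rose in double positive over endothelial libraries (log2 difference 1.59, SE 0.22, adjusted p = 0.0014 with edgeR) and over erythroid libraries (0.94, SE 0.22, adjusted p = 0.00858, and 0.0511 without replicate 7). Rab7, the late endosome GTPase, fell in erythroid against endothelial libraries (log2 difference −0.62, SE 0.16, adjusted p = 0.0147 with edgeR), and Vps16, a tethering subunit, rose (1.18, SE 0.32, adjusted p = 0.0169) but turned to −0.36 with library size alone. In control by nutrients and energy, Prkaa2, a catalytic AMPK subunit, had 7.65 and 8.15 CPM in double positive libraries and 0 in all other libraries. Over floors of 3 counts it was at least 27.7-fold higher than in erythroid and at least 52.4-fold higher than in endothelial libraries, a description with no test, since Prkaa2 passed the filter only through the double positive libraries. Mtor, the kinase that holds autophagy in check, rose in double positive over erythroid libraries (log2 difference 1.49, SE 0.39, adjusted p = 0.0148 with edgeR), with 0.0914 and 0.123 without replicate 7 and 8. Ddit4, an inhibitor of mTOR, had 0 counts in erythroid libraries, against 10.3, 1.30 and 4.69 CPM in endothelial libraries, at least 19.0-fold lower. This is a description with no test. Ddit4 had 6 and 7 counts in double positive libraries and passed the filter only through the endothelial libraries, where it was high.

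The mitochondrial list holds import and pore proteins of the organelle that mitophagy removes, with the matrix proteins citrate synthase and Hspd1. Of this list 12 genes were tested. Citrate synthase (Cs) had 146 and 155 CPM in double positive libraries, 294, 381 and 318 CPM in erythroid libraries and 142, 147 and 131 CPM in endothelial libraries, and rose in erythroid over endothelial libraries (log2 difference 1.24, SE 0.14, adjusted p = 0.000194 with edgeR), turning to −0.31 with library size alone. Cs, Timm23, Tomm22 and Vdac3 rose and Vdac1 and Vdac2 fell in that comparison, beside 14.4% and 26.6% of all genes, and with library size alone the 4 that rose had log2 differences of −0.31, −0.74, −0.85 and −0.91. In double positive over endothelial libraries Hspd1, Timm23, Tomm20, Tomm22, Vdac1 and Vdac2 rose, beside 14.6% of all genes. With library size alone only Tomm20 kept the call. There the log2 difference was 0.34 for Hspd1 (adjusted p = 0.288 with edgeR), 0.06 for Timm23 (0.878) and 0.05 for Tomm22 (0.873). Vdac1 and Vdac2 turned to −0.02 and −0.04 in that setting. They also lost the call without 7 and 5 of the 8 libraries, each left out in turn, at adjusted p up to 0.248 and 0.173. With edgeR on RLE factors both lost it (0.102 for Vdac1, 0.059 for Vdac2), as with globin genes and Rn45s removed (0.105 and 0.0611). Vdac1 also lost it with DESeq2 (adjusted p = 0.0827) and, with edgeR, with no filter (0.0529) and only the populations compared (0.0593). Hspd1 lost its call without replicate 7 or 8, at adjusted p up to 0.106. For Timm23 and Tomm22 the runs with a library left out are not given here. Tomm20, an outer membrane import receptor, had 238 and 258 CPM in double positive libraries, 61.8, 47.0 and 46.0 CPM in erythroid libraries and 57.5, 47.1 and 44.8 CPM in endothelial libraries. In double positive libraries it rose 4.97-fold over endothelial libraries (log2 difference 2.31, SE 0.21, adjusted p = 0.00014 with edgeR) and 4.80-fold over erythroid libraries (2.26, SE 0.21, adjusted p = 7.38e-05), and both calls held in every alternative. Vdac1, the outer membrane pore, had 254 and 238 CPM in double positive libraries, 75.3, 70.1 and 72.4 CPM in erythroid libraries and 197, 144 and 141 CPM in endothelial libraries. It fell in erythroid against endothelial libraries (log2 difference −1.15, SE 0.17, adjusted p = 0.000762 with edgeR) and rose in double positive over erythroid libraries (1.76, SE 0.19, adjusted p = 0.000149).

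Since Bnip3 is a known hypoxia target, 12 genes of the hypoxia response were read beside it, of which 10 were tested. In double positive over endothelial libraries 1 fell, beside 6.92% of all genes, and 9 did not pass. In double positive over erythroid libraries 5 rose, beside 31.5%, and 5 did not pass. In erythroid over endothelial libraries 6 fell, beside 26.6%, and 4 did not pass. Ldha, the lactate dehydrogenase subunit, had 1830 and 1162 CPM in double positive libraries, 227, 235 and 279 CPM in erythroid libraries and 1126, 1061 and 967 CPM in endothelial libraries. Its log2 difference was 0.51 (SE 0.19, adjusted p = 0.101 with edgeR; −0.11 with library size alone) for double positive over endothelial, 2.60 (SE 0.20, adjusted p = 2.98e-05) for double positive over erythroid, and −2.09 (SE 0.18, adjusted p = 4.08e-05) for erythroid over endothelial libraries. Epas1, which encodes an endothelial hypoxia-inducible factor, had 38.2 and 38.9 CPM in double positive libraries, 0 in all erythroid libraries and 152, 73.5 and 164 CPM in endothelial libraries. In double positive against endothelial libraries it was the gene of the list that fell (log2 difference −1.75, SE 0.40, adjusted p = 0.0237 with edgeR), with an adjusted p of up to 0.143 when replicate 1, 3, 7 or 8 was left out. Hif1a had 145 and 132 CPM in double positive libraries, 82.3, 40.9 and 60.0 CPM in erythroid libraries and 124, 165 and 128 CPM in endothelial libraries.

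Reads of some members are uncertain in origin. Pseudogenes or other transcripts with at least 95% identity over at least 200 bases numbered 5 for Bnip3, 4 for Map1lc3b, 3 for Gabarapl2 and 1 each for Bnip3l, Gabarapl1 and Sqstm1, and how the authors' counting treated reads shared with them is not given in the sources used here. Exons of Bnip3, Map1lc3b, Gabarapl1 and Sqstm1 overlap a gene on the opposite strand by 504, 58, 570 and 580 bases. For Bnip3, Gabarapl1 and Sqstm1 that gene (Gm45507, 1700101I11Rik and Mrnip) is also among the transcripts numbered above, so it stands in both counts. Without a stated strand setting, reads of such partners cannot be told apart.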

How the data were processed

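RNA from 8 pools of sorted yolk sac cells was amplified by Smart-seq2 with 14 cycles of PCR, per the labels' protocols, and the reads carry no molecular identifiers, so floors cover counting error only. The authors deposited unscaled read counts, 1 row per gene symbol. The submitters' processing notes name FastQC, HTSeq and mm10. Aligner, annotation and strandedness: not given in the sources used here. From these counts edgeR 4.0.16 in R 4.3.3 kept genes by filterByExpr at a minimum count of 10, scaled by TMM and fitted robust quasi-likelihood models, with a mean for each population (common biological coefficient of variation 0.5413), two-sided, with tests adjusted over 12136 genes. The fit was tested on simulated data. Exon lengths and positions came from GENCODE on GRCm38, and lengths were found for 11777 tested genes. Folds over a group without counts use 3 counts in that group as its floor.

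The members, gene lists and tests were chosen with earlier results of these data known. Named were all members and Gabarap, up to 3 further genes of each list with the smallest adjusted p in each comparison, genes called in the same direction in both comparisons of the double positive libraries, and the 5 closest profiles to 4 members. Not every gene this rule names is described. Alternatives were DESeq2 1.42.0, limma-voom (limma 3.58.1), RLE factors, library size alone, globin genes and Rn45s removed before scaling, no filter, a stricter minimum count (50), a fit of the compared populations only, and each library left out. No libraries of a group held identical counts.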

Additional observations from a re-analysis of the deposited data

How the results depend on the processing

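No paired analysis was possible because replicates are numbered 1 to 8 across the series and no number is shared between populations. Of the 30 member comparisons, RLE factors, globin removal, limma-voom and no filter changed no direction and no call. Library size alone, which takes in the globin share of the erythroid libraries, reversed 9 of the 30, ended 5 other calls and made 7 others. It gave 1118 genes higher and 1901 lower for double positive over endothelial, 5760 and 473 for double positive over erythroid, and 420 and 7270 for erythroid over endothelial libraries. Among members it gave 1 higher for double positive over endothelial, 5 higher and 0 lower for double positive over erythroid, and 1 higher (Foxo3) and 7 lower for erythroid over endothelial libraries. For double positive over endothelial libraries, DESeq2 called 1415 genes lower and a fit of only the populations compared 1422, against 840. Over the runs that leave out 1 library each, counts ran from 696 (without replicate 8) to 1854 higher and from 219 (without replicate 7) to 1038 lower for double positive over endothelial, and from 2315 to 3845 higher and 609 to 1348 lower for double positive over erythroid libraries, lowest in each case without replicate 7. Among members they ran from 2 (without replicate 8) to 5 higher (without replicate 6) for double positive over endothelial libraries. The 5 include Foxo3, which passed the filter only through the erythroid libraries and is given above with no test. For double positive over erythroid libraries members ran from 1 (without replicate 6 or 8) to 2 higher. For erythroid over endothelial libraries they ran from 0 to 1 lower (Ulk1, without replicate 3).

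Log2 differences of members, Gabarap and genes that had passed that reversed with library size alone were, for erythroid over endothelial, −1.02 for Bnip3, −1.27 for Map1lc3b, −0.30 for Gabarapl2, −1.15 for Sqstm1, −1.34 for Gabarap, −0.32 for Becn1, −0.60 for Tax1bp1, −0.36 for Vps16, −0.31 for Cs, −0.74 for Timm23, −0.85 for Tomm22, −0.91 for Vdac3 and −0.89 for Vamp8. For double positive over endothelial they were −0.12 for Bnip3l, −0.40 for Map1lc3a, −0.39 for Gabarapl1, −0.037 for Vdac2 and −0.021 for Vdac1, and for double positive over erythroid 0.63 for Gabarapl2 and 0.83 for Atg7. Uncalled values that changed sign when 1 library was left out were those of Ulk1 (−0.97 to 0.29), Map1lc3a (−0.0073 to 0.46) and Gabarapl1 (−0.058 to 0.58) for double positive over endothelial and of Atg7 (−0.46 to 0.51) for double positive over erythroid libraries.

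With no length scaling, the ATG8 shares in double positive, erythroid and endothelial libraries were 3.63%, 3.27% and 5.30% for Map1lc3a, 41.9%, 40.8% and 41.3% for Map1lc3b, and 41.6%, 37.8% and 39.9% for Gabarap. In erythroid libraries they were 3.92% for Gabarapl1 and 14.2% for Gabarapl2. Per kilobase, the mean log2 ratio of Bnip3l to Bnip3 was −2.99 in double positive, 1.63 in erythroid and 0.24 in endothelial libraries, and the cause is the exon lengths entered. With 24 or 25 cells and a pair of double positive libraries, genes under about 10 CPM such as Foxo3, Ulk1 and Atg7 are the least precise.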
